A study of Homo sapiens with 6 samples.

Results

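Chondroitin sulfate proteoglycans are core proteins that carry long sulfated sugar chains and fill much of the extracellular space of the brain and of brain tumors. The genes described here are the 4 lecticans VCAN, BCAN, NCAN and ACAN, the 3 membrane proteoglycans CSPG4, CSPG5 and PTPRZ1, and the 3 link proteins HAPLN1, HAPLN2 and HAPLN3, which fasten lecticans to hyaluronan. They were chosen by name as proteoglycans of brain tumors, with earlier results of these data known, and make up 10 of the 58174 genes in the expression table. The data were polyA mRNA-seq libraries of KNS42, a cell line derived from a pediatric glioblastoma (GBM) and grown with serum as adherent cells. Cells had been transfected with siRNAs against MSI1 (siMSI1, n = 3) or with a control siRNA (siC, n = 3) and were harvested 72 h later, with no other difference between the groups given. MSI1 encodes Musashi1, an RNA-binding protein of neural stem cells, and the comparison asks which of these mRNAs differed in abundance once MSI1 was depleted.

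Lecticans bind hyaluronan through their N-terminal domain and tenascins or other ligands through their C-terminal domain, with the chondroitin sulfate chains attached in between. Link proteins bind both hyaluronan and the lectican and so hold the complex together. In the adult brain BCAN, NCAN and ACAN take part in the dense matrix around neurons, whereas VCAN is known for its role in migrating and proliferating cells and is made in large amounts by many gliomas. PTPRZ1, a receptor tyrosine phosphatase that is also secreted in a shorter form named phosphacan, and CSPG4, also named NG2, are widely used markers of glial progenitors and of glioma cells. CSPG5 is a membrane proteoglycan of neural cells.

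KNS42 cells expressed few of these genes. Expression was measured as FPKM, the fragment count of a gene divided by its length and by the size of the library, and all comparisons of levels between genes below are on this scale. Only VCAN and PTPRZ1 had a mean level above 1 FPKM, CSPG5 and HAPLN3 lay between 0.5 and 1 FPKM, and the other 6 genes were below the filter of 0.5 FPKM that a gene had to pass to be tested. Upon MSI1 knockdown, VCAN mRNA was 1.33-fold and PTPRZ1 mRNA 1.47-fold of the siC level, with no overlap between the groups, but both missed the threshold of an adjusted p of 0.01 by a narrow margin. Of the 4 tested genes 0 passed this threshold, compared with 11.0% of all 15069 genes tested, by limma with Benjamini-Hochberg adjustment. At an unadjusted p under 0.05 the count was 2 of 4, against 38.3% of all genes, and voom, a limma method for read counts, called the same 2 genes, against 17.9% of all genes. The siC and siMSI1 values did not overlap for 3 of the 4 genes, VCAN and PTPRZ1 being higher and HAPLN3 lower in siMSI1. Such separation was found for 42.8% of all tested genes.

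The knockdown was similar across libraries, whereas the depth differed, being highest in siC replicate 2 and lowest in siMSI1 replicate 2. MSI1 mRNA, the target, measured 63.7, 61.9 and 66.9 FPKM in the siC and 12.1, 12.3 and 11.2 FPKM in the siMSI1 libraries. Its log2 fold change was -2.43 ± 0.067 (SE, limma, adjusted p = 8.71e-06). Reads on genes numbered 14448513 to 18024080 in siC and 13087025 to 14700593 in siMSI1. At this depth 3 reads, taken as the floor of detection, correspond to 0.0112 FPKM for VCAN in the deepest library and to 0.102 FPKM for HAPLN2 in the shallowest, and floors cover counting error only. Because whole cultures were sequenced, fewer cells of a kind and less RNA per cell cannot be told apart.

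Musashi proteins bind short RNA motifs such as GUAG, mostly in 3′UTRs, and the sites of the expressed genes are shown here because the siRNAs deplete this RNA-binding protein. GTAG, as the motif reads in DNA, was searched on the transcribed strand in the 3′UTR of the canonical transcript of each gene (GENCODE release 44, GRCh38). It occurred 4 times in the 1868 bases of VCAN, 5 times in the 816 bases of PTPRZ1, 2 times in the 362 bases of CSPG5 and 0 times in the 676 bases of HAPLN3. Among all 11259 tested protein-coding genes with such a 3′UTR, 79.7% held the motif. Among 3′UTRs of similar length (0.8 to 1.25 times), the motif was present in 98.1% for VCAN, 81.3% for PTPRZ1, 48.5% for CSPG5 and 74.4% for HAPLN3. At 6.13 per kb PTPRZ1 had more copies than 93.1% of 3′UTRs of similar length, CSPG5, at 5.52 per kb, more than 84.8%, and VCAN, at 2.14 per kb, more than 35.0%. These are matches of letters and do not show binding. A stretch of 30 bases around 1 site per gene is given 5′ to 3′ on the transcribed strand, with the motif in capitals, from chr5:83580885-83580914 (plus strand) for VCAN, chr7:122061562-122061591 (plus strand) for PTPRZ1 and chr3:47562556-47562585 (minus strand) for CSPG5.
VCAN: cggctgcttttatGTAGtttaggctggaaa
PTPRZ1: tttagctgtatttGTAGcaattatcaggtt
CSPG5: agaggaagcggggGTAGtgggtggggggta

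VCAN (ENSG00000038427, chromosome 5, 83471618 to 83582303, plus strand, GRCh38) encodes versican and was the highest of the 10 genes in all 6 libraries. Its level was 19.7, 19.8 and 17.2 FPKM in siC and 26.8, 24.2 and 24.1 FPKM in siMSI1, which rested on 3664 to 5860 reads per library. The groups were separated, the lowest siMSI1 library being above the highest siC library. The mean was 18.9 ± 1.49 FPKM in siC and 25.05 ± 1.52 FPKM in siMSI1 (SD, n = 3 each). On the log2(FPKM + 0.1) scale, the difference was 0.41 ± 0.082 (SE) with a 95% interval of 0.22 to 0.60 and an adjusted p of 0.0106 by limma. The values are sums over all splice forms, which in versican differ in the exons that carry the chain attachment sites. An antisense transcript, VCAN-AS1, lies within the gene and had 31 to 56 reads per library, a small number beside those of VCAN, at 2.67 ± 0.196 FPKM in siC and 3.75 ± 0.911 FPKM in siMSI1 (log2 fold change 0.44, adjusted p = 0.115 by limma). Whether the counting used the strand is not given in the sources used here, so reads of VCAN and of VCAN-AS1 may be mixed.

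PTPRZ1 (ENSG00000106278, chromosome 7, 121873089 to 122062036, plus strand) was second in level. It measured 4.83, 4.62 and 4.11 FPKM in the siC and 7.28, 6.86 and 5.84 FPKM in the siMSI1 libraries, from 586 to 1064 reads per library. All siMSI1 libraries exceeded all siC libraries, with siMSI1 replicate 3 closest to the controls. The mean was 4.52 ± 0.369 FPKM in siC and 6.66 ± 0.739 FPKM in siMSI1 (SD, n = 3 each). Its log2 difference was 0.55 ± 0.11 (SE) with a 95% interval of 0.29 to 0.80 and an adjusted p of 0.0103 by limma. The receptor and the secreted phosphacan form come from the same gene and are not separated by these values.

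The call for both genes depended on the fit. Among 16 other fits, which changed the scaling, filter, added value, variance model or libraries, VCAN passed the threshold in 5 and PTPRZ1 in 7, while the share of all genes called ran from 2.65% to 32.3%. The log2 difference was 0.34 to 0.44 for VCAN and 0.47 to 0.64 for PTPRZ1. When any 1 library was left out, the adjusted p of VCAN by limma was 0.0132 to 0.0384. For PTPRZ1 it was 0.0052 without siMSI1 replicate 3, which passes the threshold, and up to 0.0386 otherwise.

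**Figure D1:**
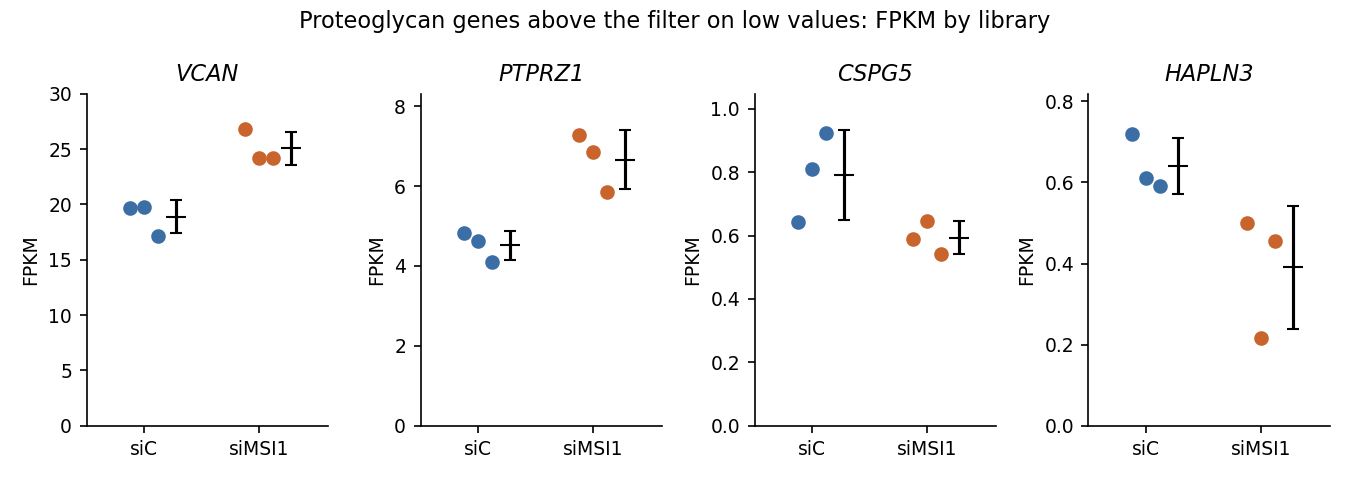
FPKM (linear axes from 0, a scale of its own per gene) of the 4 genes that passed the filter on low values, in 3 siC (blue) and 3 siMSI1 (orange) libraries in the order of their replicate number; each point is a library and the bars beside the points are mean ± SD. VCAN and PTPRZ1 were higher in each siMSI1 library than in any siC library, the CSPG5 groups overlapped, and HAPLN3 was lower in each siMSI1 library.

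**Figure D2:**
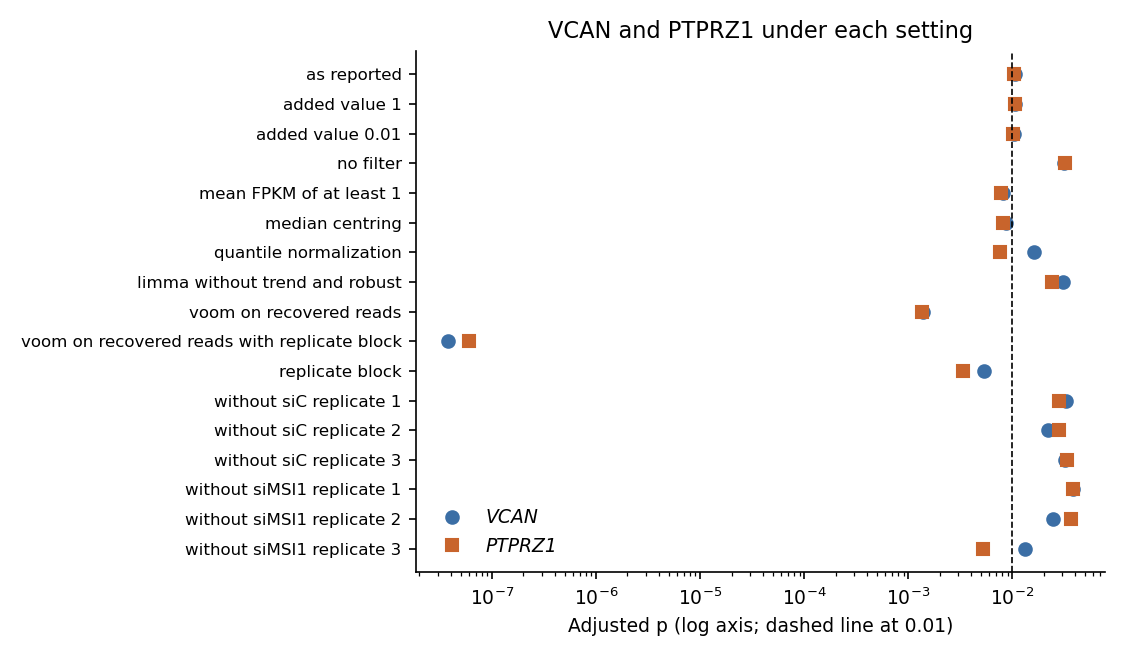
Adjusted p from limma (log axis) of VCAN (circles) and PTPRZ1 (squares) in the reported fit and in 16 others, with the threshold of 0.01 as a dashed line. Most points lie close to the line on either side, and the smallest values come from voom with the replicate number as a block.

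CSPG5 (ENSG00000114646, chromosome 3, 47562238 to 47580792, minus strand) measured 0.642, 0.810 and 0.923 FPKM in the siC and 0.590, 0.646 and 0.542 FPKM in the siMSI1 libraries, which came from 34 to 64 reads per library. The ranges of the groups overlapped in one pair of libraries. The log2 difference was -0.35 ± 0.25 (SE) with a 95% interval of -0.93 to 0.22 and an adjusted p of 0.336 by limma, an interval that leaves room for a fall as large as the difference of PTPRZ1 or for no change. The third membrane proteoglycan, CSPG4 (chromosome 15, 75674322 to 75712848, minus strand), had 2, 2 and 1 reads in siC and 1, 3 and 3 reads in siMSI1. No library exceeded the floor of 3 reads, so no fold is given for CSPG4.

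The other lecticans were close to or below the limit of detection. BCAN (chromosome 1, 156641390 to 156659532, plus strand), the brain-specific lectican brevican, had 6, 9 and 9 reads in siC and 8, 3 and 10 in siMSI1, a level of 0.0464 to 0.141 FPKM. Corrected for depth, its summed reads in siMSI1 were 0.985 times those in siC, with a 95% interval of 0.522 to 1.85 that covers counting error only. NCAN, or neurocan (chromosome 19, 19211958 to 19252233, plus strand), had 0, 0 and 1 reads in siC and 1, 8 and 3 reads in siMSI1. Corrected for depth, the summed reads in siMSI1 were 13.5 times those in siC, with a 95% interval from counting of 2.0 to 578. However, 8 of these 12 reads came from siMSI1 replicate 2, and without a filter on low values the log2 difference was 0.43 ± 0.24 (SE, adjusted p = 0.363 by limma). ACAN (chromosome 15, 88803436 to 88875353, plus strand), or aggrecan, had 1 read in siMSI1 replicate 1 and 0 in the other 5. A count of 0 allows up to 3 reads, or 0.0152 to 0.0210 FPKM of ACAN depending on the library.

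Of the link proteins only HAPLN3 was above the filter. HAPLN3 (ENSG00000140511, chromosome 15, 88877294 to 88895597, minus strand) measured 0.720, 0.612 and 0.592 FPKM in the siC and 0.501, 0.216 and 0.454 FPKM in the siMSI1 libraries, from 10 to 39 reads per library. Each siMSI1 value was below each siC value, and the lowest, in siMSI1 replicate 2, rested on 10 reads. With a log2 difference of -0.65 ± 0.37 (SE), a 95% interval of -1.5 to 0.21 and an adjusted p of 0.241 by limma, HAPLN3 did not pass the test. HAPLN2 (chromosome 1, 156619331 to 156625725, plus strand) had 1, 0 and 3 reads in siC and 1, 0 and 1 in siMSI1. HAPLN1 (chromosome 5, 83637805 to 83720855, minus strand) had 1 read in siMSI1 replicate 3 and 0 elsewhere. Neither gene exceeded 3 reads in any library, and no fold is given.

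**Figure D3:**
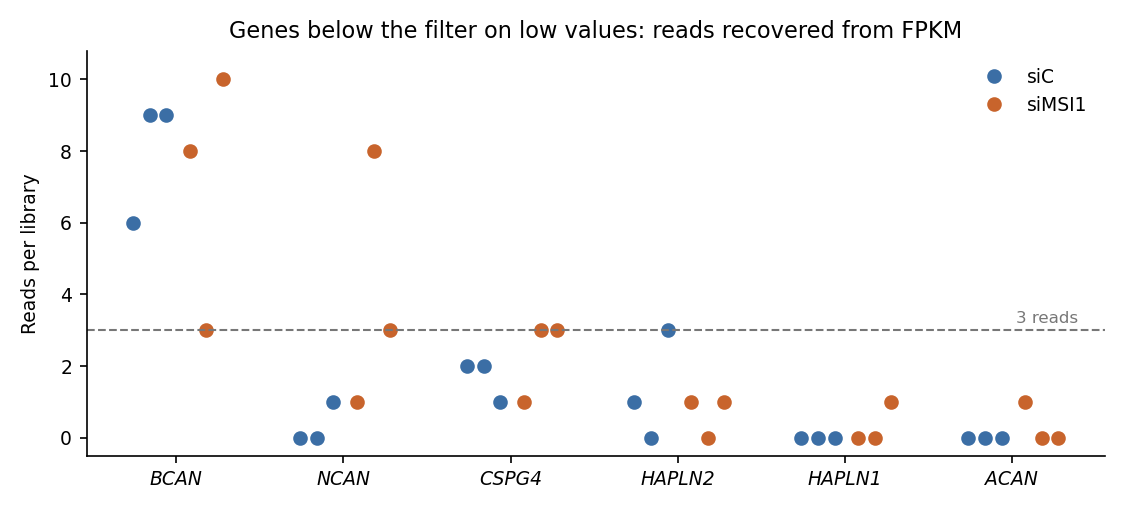
Reads per library (linear axis), recovered from the FPKM values, of the 6 genes below the filter, with siC in blue and siMSI1 in orange, and with the floor of 3 reads as a dashed line. BCAN reached 10 reads and NCAN 8, and the remaining 4 genes did not exceed the floor in any of the 6 libraries.

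Ranked by mean FPKM over all 6 libraries, VCAN was 3.93-fold above PTPRZ1 and PTPRZ1 8.07-fold above CSPG5, with no overlap of their ranges. CSPG5 was 1.34-fold above HAPLN3, and these neighbours overlapped, CSPG5 being higher in 5 of 6 libraries. HAPLN3 was 5.10-fold above BCAN without overlap, and below BCAN every pair of neighbours overlapped. The summed level of the 10 genes was 25.0 ± 1.70 FPKM in siC and 32.9 ± 2.17 FPKM in siMSI1, and the groups were separated (p = 0.1, exact permutation test, two-sided, the smallest p that 3 against 3 libraries allow).

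VCAN made up most of this sum in both groups. Its share was 75.7%, 76.3% and 74.6% in siC and 75.9%, 75.4% and 77.3% in siMSI1. The mean share differed by 0.679 percentage points (siMSI1 minus siC, p = 0.5, exact permutation test), less than the spread between libraries, and on reads not divided by gene length the difference had the opposite sign, at -0.565 percentage points (p = 0.5, exact permutation test). PTPRZ1 held 18.1 ± 0.430% in siC and 20.2 ± 1.37% in siMSI1 (SD, n = 3 each, p = 0.1, exact permutation test). On reads not divided by gene length its share was 13.5 ± 0.30% and 14.9 ± 1.04%, and the groups overlapped (p = 0.2, exact permutation test). The ratio of VCAN to PTPRZ1 was 4.18 ± 0.104 in siC and 3.78 ± 0.314 in siMSI1 (p = 0.2, exact permutation test).

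Each lectican gene has a link protein gene beside it in the human genome. VCAN and HAPLN1 lie 55.5 kb apart on chromosome 5, BCAN and HAPLN2 15.7 kb apart on chromosome 1, and ACAN and HAPLN3 1.94 kb apart on chromosome 15. The expressed lectican, VCAN, had a neighbour at 0 reads in 5 of 6 libraries, whereas the expressed link protein, HAPLN3, was next to ACAN, which was likewise at 0 reads in 5 of 6. NCAN lies 2.52 kb from HAPLN4, which had 0 reads in all libraries.

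The genes whose profile over the 6 libraries was most like that of VCAN, by Pearson's r of log2(FPKM + 0.1) among 13039 genes with a mean of at least 1 FPKM, were CENPH (r = 0.999), ERAP1 (r = 0.996) and PSME4 (r = 0.996). CENPH encodes a kinetochore protein, ERAP1 an aminopeptidase that trims peptides for antigen presentation, and PSME4 an activator of the proteasome. PTPRZ1 had an r of 0.970 with VCAN. Pearson's r does not measure the size of a difference. Mean FPKM in siC and siMSI1 was 13.3 and 14.4 for CENPH and 3.47 and 4.38 for ERAP1. It was 11.7 and 15.2 for PSME4 and 18.9 and 25.05 for VCAN. With only 6 libraries that share the contrast between the groups, an r of at least 0.95 was reached by 268 genes and one of at least 0.9 by 795.

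Chondroitin sulfate chains are built on a tetrasaccharide linker that starts with xylose on a serine of the core protein, then lengthened by alternating glucuronic acid and N-acetylgalactosamine, and sulfated at several positions. The list used here also covers the linker and the sulfate donor, which do not serve chondroitin sulfate alone. The listed genes changed in both directions upon MSI1 knockdown. Of 29 such genes 22 were tested and 8 passed the threshold, 3 higher and 5 lower in siMSI1, where 5.15% of all tested genes were called higher and 5.83% lower. The median log2 fold change of the 22 genes was -0.01, and that of all 15069 genes tested was 1.46e-05. When a library was left out, fewer of these genes and fewer of all genes were called. The count was 0 without siC replicate 1, where 3.43% of all tested genes passed. It was 2 without siC replicate 2 (5.60% of all genes), 3 without siC replicate 3 (5.32%), 2 without siMSI1 replicate 1 (5.41%), 3 without siMSI1 replicate 2 (5.85%) and 6 without siMSI1 replicate 3 (10.6%).

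The steps that start and extend the chain held the largest differences. XYLT1, a xylosyltransferase that adds the first sugar, fell from 2.80, 2.98 and 2.86 FPKM in siC to 1.47, 1.43 and 1.59 FPKM in siMSI1 (log2 fold change -0.90 ± 0.11, SE, adjusted p = 0.0014 by limma). Its paralog XYLT2 was at 5.47 ± 0.233 FPKM in siC and 4.34 ± 0.398 FPKM in siMSI1 and did not pass (adjusted p = 0.0388 by limma). FAM20B, the kinase that phosphorylates the xylose, fell from 20.3 ± 0.967 to 14.8 ± 0.566 FPKM (log2 fold change -0.45, adjusted p = 0.0033 by limma). B3GAT3, which completes the linker and had the highest mean level over all libraries of this list, was at 56.9 ± 3.77 and 64.4 ± 3.16 FPKM (adjusted p = 0.116 by limma).

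Among the chondroitin synthases, which polymerize the chain, CHSY1 fell and CHSY3 rose. CHSY1 measured 3.15, 2.84 and 2.25 FPKM in the siC and 1.09, 1.1 and 0.915 FPKM in the siMSI1 libraries, a log2 fold change of -1.32 ± 0.16 (SE, adjusted p = 0.0014 by limma). CHSY3 measured 3.70, 3.57 and 3.64 FPKM in the siC and 5.15, 5.35 and 4.86 FPKM in the siMSI1 libraries, a log2 fold change of 0.48 ± 0.083 (SE, adjusted p = 0.0057 by limma). In siC the mean levels of the paralogs were 2.75 ± 0.455 and 3.63 ± 0.0649 FPKM, and in siMSI1 they were 1.03 ± 0.103 and 5.12 ± 0.243 FPKM. The polymerization cofactor CHPF2 rose from 46.9 ± 2.38 to 64.3 ± 6.33 FPKM (log2 fold change 0.45, adjusted p = 0.0084 by limma). Its paralog CHPF was at 52.9 ± 4.29 FPKM in siC and 68.0 ± 9.29 FPKM in siMSI1 and missed the threshold (adjusted p = 0.0465 by limma). CHPF2 overlaps SMARCD3 on the other strand, which fell from 7.66 to 3.57 mean FPKM, and reads of the pair cannot be told apart if the counting ignored the strand. XYLT1 and CHSY1 passed in 15 of the 16 other fits, FAM20B and CHSY3 in 10 and CHPF2 in 8. In the 6 of these fits that left out a library, XYLT1 and CHSY1 passed in 5, FAM20B in 2 and CHSY3 and CHPF2 in 1.

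Of the 11 tested sulfation genes 3 passed, where 11.0% of all tested genes were called. CHST3, which sulfates the 6-position of N-acetylgalactosamine, fell from 20.1 ± 1.12 to 15.0 ± 0.968 FPKM (log2 fold change -0.42, adjusted p = 0.0070 by limma). CHST11, which sulfates the 4-position, fell from 6.45 ± 0.455 to 4.69 ± 0.162 FPKM (log2 fold change -0.45, adjusted p = 0.0085 by limma). UST, which sulfates the uronic acid, rose from 12.0 ± 0.568 to 16.0 ± 0.734 FPKM (log2 fold change 0.41, adjusted p = 0.0055 by limma). An antisense transcript within UST, AL357992.1, rose as well, from 20.8 to 50.5 mean FPKM (log2 fold change 1.30, adjusted p = 0.0050 by limma). It is only 130 bases long and had 35 to 102 reads per library, beside 775 to 1086 for UST. The part of AL357992.1 in the UST value was not tested. SLC35B2, a transporter of the sulfate donor and the highest of the sulfation genes, was at 47.1 ± 3.75 and 43.5 ± 3.98 FPKM (adjusted p = 0.381 by limma). With a library left out, CHST3 and UST passed in 1 of 6 fits and CHST11 in 0. In these fits 3.43% to 10.6% of all genes were called.

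**Figure D4:**
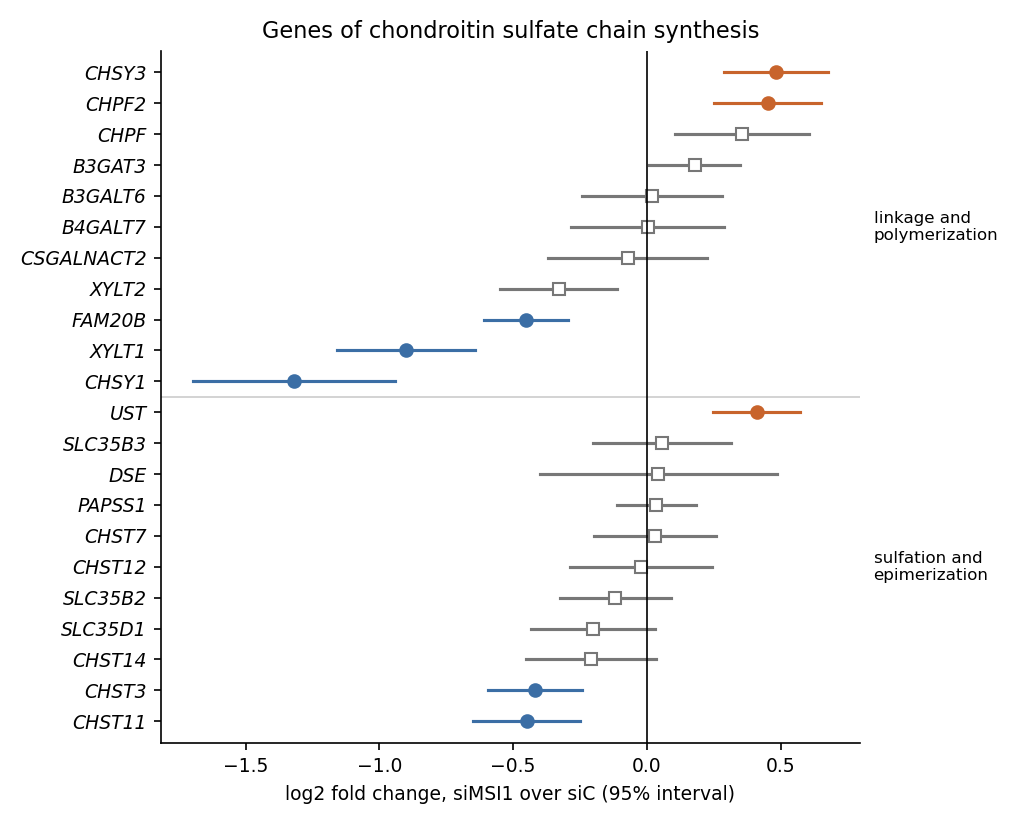
Log2 fold change (siMSI1 over siC, limma on log2(FPKM + 0.1)) with its 95% interval for the 22 tested genes of chain synthesis, ordered by value within the linkage and polymerization list (above the line) and the sulfation list (below). Filled circles are the 8 genes past an adjusted p of 0.01 (orange higher, blue lower) and open squares the 14 others; the values run from -1.32 for CHSY1 to 0.48 for CHSY3.

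Other core proteins that can carry chondroitin or dermatan sulfate summed to 360 to 372 FPKM in siC and 399.9 to 430 FPKM in siMSI1, more than the 10 genes described above. Of 16 listed 10 were tested and 3 passed, where 11.0% of all tested genes were called. APLP2, an amyloid precursor-like protein and the highest of this list, rose from 163 ± 0.437 to 202 ± 2.49 FPKM (log2 fold change 0.31, adjusted p = 0.0073 by limma). CD74, the invariant chain of MHC class II, of which a minor form carries a chain, rose from 22.4 ± 1.44 to 44.0 ± 3.74 FPKM (log2 fold change 0.97, adjusted p = 0.0004 by limma). CD44, a hyaluronan receptor, fell from 84.8 ± 1.64 to 61.9 ± 3.89 FPKM (log2 fold change -0.46, adjusted p = 0.0030 by limma).

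Partners of the proteoglycans include hyaluronan synthases, tenascins, adhesion molecules and growth factors. Of the 14 listed genes 6 were tested and 2 passed, where 11.0% of all tested genes were called. HAS3, a hyaluronan synthase, rose from 1.46, 1.45 and 1.64 FPKM in siC to 4.04, 3.55 and 3.54 FPKM in siMSI1 (log2 fold change 1.23 ± 0.11, SE, adjusted p = 0.0005 by limma). HAS2, a paralog of HAS3, measured 2.52, 2.43 and 2.49 FPKM in the siC and 1.78, 2.0 and 1.36 FPKM in the siMSI1 libraries and did not pass (log2 fold change -0.52, adjusted p = 0.0425 by limma). NRCAM, an adhesion molecule bound by PTPRZ1, fell from 19.1 ± 1.18 to 14.0 ± 1.19 FPKM (log2 fold change -0.45, adjusted p = 0.0082 by limma). PTN, or pleiotrophin, a ligand of PTPRZ1 and the highest of the list, was at 144 ± 6.97 and 148 ± 17.1 FPKM, with a 95% interval of the log2 difference of -0.19 to 0.25. In siC the mean level of the ligand was thus 144 FPKM and that of its receptor 4.52 FPKM.

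Neuronal and glial receptors for chondroitin sulfate were represented by 3 tested genes of 5. PTPRS, a receptor phosphatase that binds the chains, rose from 43.4, 40.7 and 42.7 FPKM to 57.3, 55.9 and 60.3 FPKM (log2 fold change 0.45 ± 0.063, SE, adjusted p = 0.0024 by limma), and the other two did not pass. Of 10 genes for lectican-cleaving proteases and an inhibitor, 2 were tested and 0 passed by limma, with 1 at an unadjusted p under 0.05. Neither of these 2 genes passed in any of the 16 other fits, voom included. The highest was ADAMTS15, at 109 ± 4.22 FPKM in siC and 113 ± 4.98 FPKM in siMSI1, with a 95% interval of the log2 difference of -0.10 to 0.21. ADAMTS9, below the filter and named after its values were seen, was at 0.605 ± 0.0279 and 0.349 ± 0.0295 FPKM, without overlap. In the fit without the filter its log2 difference was -0.65 ± 0.20 (SE, adjusted p = 0.111 by limma). The calls were 3 of 10 for core proteins, 2 of 6 for partners and 1 of 3 for receptors, where 11.0% of all tested genes were called. The median log2 fold change was 0.23 for the core proteins, -0.08 for the partners, 0.05 for the receptors and 0.13 for the proteases. With each library left out in turn, CD74 and HAS3 passed in all 6 fits, PTPRS in 3, CD44 and APLP2 in 1 and NRCAM in 0.

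**Figure D5:**
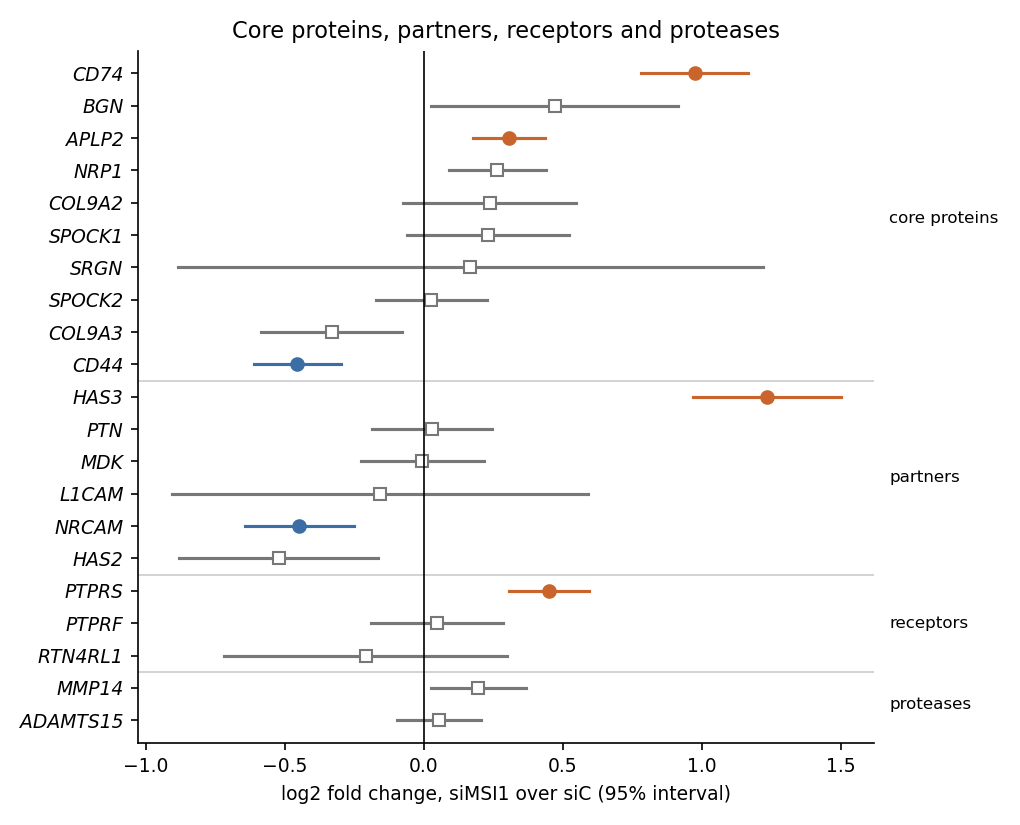
Log2 fold change (siMSI1 over siC) with its 95% interval from limma for the tested genes of 4 lists, other core proteins, partners, receptors and proteases, separated by lines. Filled circles passed an adjusted p of 0.01 (orange higher, blue lower) and open squares did not; HAS3 at 1.23 and CD74 at 0.97 are highest, and the intervals of PTN and ADAMTS15 include 0.

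The cell identity was checked with marker genes. Glial and neural stem markers were abundant in sum, with 1423 to 1485 FPKM in siC and 1186 to 1285 FPKM in siMSI1, although S100B was at 0 reads in all libraries. Of the 6 tested 2 passed, where 11.0% of all tested genes were called. All 6 had an unadjusted p under 0.05 by limma (38.3% of all genes) and groups without overlap (42.8%). GFAP rose from 1.63 ± 0.335 to 4.61 ± 0.450 FPKM (log2 fold change 1.46, adjusted p = 0.0009 by limma). FABP7 fell from 36.1 ± 2.05 to 16.6 ± 1.38 FPKM (log2 fold change -1.12, adjusted p = 0.0003 by limma). VIM was the highest, at 1035 and 865 mean FPKM (adjusted p = 0.0382 by limma), and made up most of the sum. SOX2 followed at 301 and 257 mean FPKM (adjusted p = 0.0526 by limma). NES was at 69.2 and 61.8 mean FPKM (adjusted p = 0.0944 by limma). SLC1A3 was higher in siMSI1, at 18.6 and 21.8 mean FPKM (adjusted p = 0.0280 by limma). Oligodendrocyte progenitor markers, which in the brain accompany CSPG4 and PTPRZ1, were mostly absent. OLIG1, OLIG2 and GPR17 were at 0 reads in every library and SOX10 had 1 read in all, whereas PDGFRA was at 20.9 ± 0.468 FPKM in siC and 24.1 ± 1.35 FPKM in siMSI1 (adjusted p = 0.0621 by limma).

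Markers of other cell types were mostly low, except for ACTA2, with SYT1 at up to 4.32 FPKM and COL1A1 at up to 4.25 FPKM in a library. All 5 mature oligodendrocyte markers had at most 3 reads in every library, and the 4 immune markers summed to 0.196 to 0.472 FPKM in siC and 0.356 to 0.645 FPKM in siMSI1. The 4 endothelial markers, all below the filter, summed to 0.134 to 0.262 FPKM in siC and to a higher 0.290 to 0.442 FPKM in siMSI1. They did not move together. Summed reads in siC and siMSI1 were 2 and 20 for PECAM1 and 5 and 42 for CDH5. For VWF they were 93 and 53, and for CLDN5 1 and 0. Fibroblast markers summed to 2.72 to 6.67 FPKM in siC and 2.55 to 4.75 FPKM in siMSI1, led by COL1A1. Neuronal markers summed to 4.85 to 5.65 FPKM in siC and 4.20 to 4.56 FPKM in siMSI1, led by SYT1. In the pericyte list, whose sum was 62.1 to 67.8 FPKM in siC and 37.9 to 48.7 FPKM in siMSI1, ACTA2, an actin of contractile cells, fell from 63.5 ± 3.25 to 41.8 ± 5.45 FPKM (log2 fold change -0.61, adjusted p = 0.0044 by limma), while PDGFRB was at 0.0956 and 0.240 mean FPKM. The part of these differences in the VCAN and PTPRZ1 values was not tested.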

How the data were processed

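The deposited table held FPKM per gene and library. The authors clipped reads with Cutadapt 1.14, aligned them to GRCh38 with HISAT2 2.1.0 and counted them with featureCounts 1.5.3 on Ensembl release 89. Libraries were prepared strand-specifically per the labels, but the strand setting of the counting is not given in the sources used here. Columns with the authors' edgeR log2 fold changes, p-values and false discovery rates were not used. Groups and replicate numbers came from sample titles. Separate cultures are not stated, so p-values measure the spread between libraries, which may be technical.

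The 15069 genes with a mean of at least 0.5 FPKM were fitted as log2(FPKM + 0.1) with limma 3.58.1 in R 4.3.3 (eBayes with trend and robust), siMSI1 against siC without a block, and the threshold was a Benjamini-Hochberg adjusted p of 0.01 over all tested genes. The added 0.1 FPKM shrinks the fold changes of low genes. Multiplying each FPKM by its gene length and dividing by what a read adds returned whole reads for 100% of values above 0 (tolerance 0.01). They served for voom, for floors of 3 reads and for read counts. Intervals and floors from reads cover counting error only, since PCR copies are not independent molecules. Shares and sums were compared by exact permutation tests (SciPy 1.17.1). Positions and 3′UTRs are from GENCODE release 44 on GRCh38, a later release than the authors used. On simulated data the model called 128 of 193 planted changes (66.3%) and 5 of 14899 unchanged genes. The simulated spread was assumed and not taken from these data. The planted changes were larger than the differences of VCAN, PTPRZ1 and CSPG5, so power for differences of that size was not tested.

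The genes and lists were chosen with earlier results of these data known. Named are the 10 genes, the genes of each list that passed the threshold or had its highest mean FPKM, MSI1, and the 3 genes most like VCAN. XYLT2, CHPF, HAS2, ADAMTS9, PDGFRA, CNTN1, CSGALNACT1, CHST15 and the markers that did not pass were named in addition after their values were seen. Alternatives varied the added value, filter, scaling, variance model, threshold, block, test and libraries.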

Additional observations from a re-analysis of the deposited data

How the results depend on the processing

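The number of the 10 genes past the threshold, 0 as reported, was 2 (VCAN and PTPRZ1) with a filter of at least 1 FPKM, with median centring, with voom, with voom and the replicate block, with the replicate block and at an adjusted p of 0.05, and 1 (PTPRZ1) with quantile normalization. It remained 0 with an added value of 1 or 0.01, without a filter and with limma without trend and robust, and was 0 to 1 when each library was left out in turn. The number of chain synthesis genes past the threshold, 8 as reported, was 2 without a filter (29846 genes tested, 2.65% of them called), 5 with median centring (10.3% of all genes) and 3 with limma without trend and robust (5.62%), against 11.0% of all genes as reported. It was 7 to 11 in the other fits with all libraries, where 11.0% to 32.3% of all genes were called, and 0 to 6 when a library was left out (3.43% to 10.6%). No log2 fold change of the 4 tested genes or of the 8 called chain genes changed sign in any fit. The difference in VCAN share turned from 0.679 to -0.565 percentage points on recovered reads, which weight long genes more, and was 0.113 to 1.07 percentage points when a library was left out. The block used the numbers of the sample titles, and the study's own table numbers its libraries in another way. Correlations of same-numbered deviations were -0.0661, 0.0783 and 0.0830. The libraries numbered 2 and 3 correlated best with their own number and those numbered 1 did not. Whether the numbers pair the libraries is thus not settled. With the replicate block 2250 genes were called instead of 1655, among them 9 chain genes, and the VCAN share differed by 0.679 percentage points (p = 0.75, exact permutation of signs). CSPG5 and HAPLN3 had no value with a filter of at least 1 FPKM, and HAPLN3 none without siC replicate 1 or 2. Depth limits the values of BCAN, HAPLN1, NCAN, HAPLN2, ACAN and CSPG4, which had at most 10 reads per library.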

Other observations

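CNTN1, a neuronal adhesion molecule that binds PTPRZ1, was below the filter on low values and was singled out after its values were seen. It measured 0.116, 0.133 and 0.0557 FPKM in the siC and 0.480, 0.316 and 0.316 FPKM in the siMSI1 libraries, from 6 to 18 and 31 to 53 reads. The groups did not overlap, and in a fit without the filter the log2 difference was 1.23 ± 0.32 (SE, adjusted p = 0.0664 by limma), which does not pass the threshold. CSGALNACT1 and CHST15 were likewise picked after their values were seen. CSGALNACT1, which starts chondroitin chains on the linker, was also below the filter, with 1, 5 and 3 reads in siC and 6, 8 and 13 reads in siMSI1 (log2 difference 0.62 ± 0.31, SE, adjusted p = 0.307 by limma without the filter). CHST15, which adds a further sulfate to chains sulfated at the 4-position, had 2, 4 and 7 reads in siC and 1, 0 and 1 reads in siMSI1 (log2 difference -0.40 ± 0.21, SE, adjusted p = 0.327 by limma without the filter).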
